A study of Rattus norvegicus with 6 samples.

Results

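The genes examined were those that repair DNA breaks and mismatches or signal damage to the cell cycle in rat brain microvascular endothelial cells (rBMECs) given homocysteine (Hcy). They were chosen by symbol, as the Fanc, Rad50 to Rad59, Xrcc, Msh, Mlh and Brca families plus named kinases, ligases and adaptors. The rule itself uses no measured value, but it was set with earlier results of these data known. The deposited count table held 52 such genes among 33566, of which 49 are described here, and 47 of these were among the 14603 genes with at least 10 counts summed over all libraries. Chek1 is also named by the rule and was not analysed here. Both groups were primary rBMECs, the endothelial cells of brain capillaries, isolated from SD rats 18 to 22 days of age and used after 1 passage. The 3 Hcy libraries came from cells treated with Hcy at a labelled dose of 100 μM for 24 h, and the 3 vehicle (Veh) libraries from cells given the solvent ddH2O. The labels describe the Hcy stock used for the treatment as a 50 μM solution, so the dose is not given in a single way. Nothing in the labels ties a library to its own isolation or animal, so p-values measure the spread between these libraries, which may be technical.

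Cells meet DNA damage with sensor kinases, which slow the cycle, and with several repair routes. Homologous recombination copies an intact sister chromatid and so works mainly during and after DNA replication, with BRCA1 and BRCA2 preparing resected ends for strand exchange. The Fanconi anemia proteins unhook crosslinks between strands, the MutS and MutL homologs correct replication mismatches, Ku and ligase IV rejoin ends without a template, and PARP1 with XRCC1 and ligase III seals single-strand breaks. Many recombination and mismatch repair genes are transcribed together with the replication machinery under E2F factors, whereas the sensor kinases ATM and ATR are expressed throughout the cycle.

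Promoter sequences from RefSeq on GRCr8 matched 41 of the 49 genes by symbol. Those with no entry were Chek2, Blm, Rad54b, Nbn, Xrcc2, Msh5, Rad54l2 and Msh4. The 120 bases before the first listed start are shown for the risen genes and for Topbp1. Topbp1 did not pass and is shown as an example of E2F letters in this stretch. Those of Rad51d and Fancc also lie wholly within it. Capitals mark E2F letters or a CCAAT box on either strand. Clspn lies at chr5:144134517-144134636 on the plus strand, Brca2 at chr12:4895327-4895446 on the plus strand, Brca1 at chr10:86977582-86977701 on the minus strand and Topbp1 at chr8:112766671-112766790 on the plus strand.
Clspn: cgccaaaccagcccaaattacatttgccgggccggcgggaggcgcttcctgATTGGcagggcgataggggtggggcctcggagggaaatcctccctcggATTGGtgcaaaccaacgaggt
Brca2: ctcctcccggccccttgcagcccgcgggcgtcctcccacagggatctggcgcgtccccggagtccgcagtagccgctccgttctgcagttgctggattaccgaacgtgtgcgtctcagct
Brca1: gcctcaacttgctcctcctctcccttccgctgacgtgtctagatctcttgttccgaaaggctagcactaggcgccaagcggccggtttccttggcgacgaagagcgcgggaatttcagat
Topbp1: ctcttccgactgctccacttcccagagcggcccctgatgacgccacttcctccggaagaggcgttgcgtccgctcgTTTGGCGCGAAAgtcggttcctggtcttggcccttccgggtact

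The E2F letters searched were TTTCCCGC, TTTCGCGC, TTTGCCGC and TTTGGCGC on either strand, in windows of 300 bases that ran from 250 before the start to 50 from it on. They were found in 8 of the 41 windows (19.5%), beside 618 of 27457 RefSeq promoters (2.25%). The 8 were Clspn, Msh6, Atm, Topbp1, Bard1, Rad51d, Fancl and Fancc. Of the 3 risen genes, only Clspn held a match, and it began 21 bases past the start, outside the stretch shown above. Of the 37 tested genes with a window that did not pass, 7 held one (18.9%). In Topbp1, TTTGGCGC and GCGCGAAA overlap in the capitals, with their first bases at -44 and -40 from the start. CCAAT boxes (CCAAT on either strand) occurred in 17 of the 41 windows (41.5%), beside 37.7% of all promoters, and the cell cycle letters TTTGAA in 7 (17.1%), beside 18.1%. A match describes letters only and no binding was measured.

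The lead result was a rise of 3 repair and checkpoint genes under Hcy, namely Clspn, Brca2 and Brca1. Their levels were 1.75 to 1.85 times those in Veh, and 0 genes fell. A gene passed when edgeR's quasi-likelihood test gave a p, Benjamini-Hochberg adjusted, of 0.05 or less over all 14603 genes. This was 6.38% of the 47 genes tested, beside 2.34% of all genes, of which 1.32% were higher and 1.01% lower in Hcy. DESeq2 passed the same 3 genes, beside 4.19% of all genes. At an unadjusted p of at most 0.05 there were 11 higher and 1 lower, beside 7.44% and 5.95% of all genes. With the fold threshold of the study added (a log2 change of 1 or more in size), 0 of the 47 passed by edgeR, 0 by DESeq2 and 0 at an unadjusted p, beside 0.486%, 0.644% and 2.56% of all genes. The adjusted p of these calls needed most of the libraries: without any one of Hcy replicates 1, 2 and 3 or Veh replicate 1, 0 of the 47 passed, without Veh replicate 2 only Clspn passed, and without Veh replicate 3 the same 3 did. The log2 fold changes in these 6 fits were 0.80 to 0.97 for Clspn, 0.73 to 0.89 for Brca2 and 0.73 to 1.00 for Brca1. Over all genes, 80 to 151 passed in the 5 fits that kept Veh replicate 3 and 957 in the one without it, beside 341 with all libraries. The summed level of 37 proliferation genes was also higher in Hcy, at 578.5 to 629.2 CPM per kb (counts scaled to library size and gene length), beside 386.2 to 476.6 in Veh. Among the Veh libraries, this sum and Brca2 were highest in replicate 3, where Clspn and Brca1 were lowest. The part of proliferation in the result was not tested. In bulk RNA, more cells in the cycle and more RNA per cell cannot be told apart. Separately, the paper reports that Hcy lowered the proliferation of rBMECs, in a culture assay read at a later time than the RNA.

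Across the 47 genes, the median log2 fold change (Hcy minus Veh) was 0.12, beside -0.02 over all genes. It was above 0 in 30 genes (63.8%), beside 46.9% of all genes. In 13 genes (27.7%) every Hcy library lay above every Veh library, beside 10.8% of all genes. In 2 genes (4.26%), Fancl and Fancf, every Hcy library lay below, beside 9.27%. The remaining 32 overlapped between groups.

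The libraries held between 14024997 and 16764584 counts, and a level of 3 counts, taken as the floor, was 0.178 to 0.215 CPM (counts relative to library size, scaled with edgeR's TMM factors), which covers counting error only. Hcy and Veh libraries lay apart on the first principal component, and Veh replicate 3 stood apart from the other Veh libraries on the second. Of 12 endothelial markers, 11 were tested and 0 passed with edgeR (3 were higher and 2 lower at an unadjusted p of at most 0.05, and 2 higher and 1 lower with DESeq2). Their summed level was 2784 to 2901 CPM per kb in Hcy and 2605 to 2747 in Veh, with Cldn5, which the table lists inside Cdc45, at 0 counts in every library. The 10 pericyte and smooth muscle markers summed to 530 to 551 CPM per kb in Hcy and 881 to 1059 in Veh. Of these, Tagln fell by 0.88, Cnn1 by 1.39 and Acta2 by 0.64 on the log2 scale, the last not past the test without any one of Hcy replicates 1, 2 and 3 or Veh replicate 1. The 10 had 5 log2 fold changes above 0 and 5 below, with a median of 0.20. Those above 0 were Cspg4 at 1.66, Rgs5 at 1.26, Abcc9 at 0.87, Pdgfrb at 0.73 and Notch3 at 0.44, none past the test (edgeR adjusted p of 0.188 to 0.705) and each under 0.5 CPM per kb, while Tagln alone was at 659.1. Markers of fibroblasts summed to 6.17 to 9.99 CPM per kb in Hcy and 9.91 to 14.4 in Veh, of astrocytes to 36.1 to 37.1 and 39.9 to 47.9, of microglia to 1.09 to 1.95 and 0.848 to 1.20, of oligodendrocytes to 6.20 to 6.82 and 6.27 to 6.42, and of neurons to 3.28 to 4.69 and 2.59 to 3.60. Among these markers, Slc1a2, Aqp4, P2ry12, Cx3cr1, Ptprc, Snap25, Map2 and Rbfox3 were at 0 counts in every library. Others were detected, such as Gja1 at means of 114.6 CPM in Hcy and 139.4 in Veh, Mog at 9.87 and 9.89, and Tubb3 at 6.29 and 5.05. None of these last 5 lists had a gene past the test in edgeR or DESeq2, with 3 of 4, 2 of 5, 3 of 7, 2 of 4 and 2 of 5 genes tested and 1, 1, 0, 0 and 1 at an unadjusted p of at most 0.05. The part of these cells in the results below was not tested.

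Among the damage kinases and checkpoint adaptors, 1 of 5 passed, beside 2.34% of all genes. Clspn, whose protein claspin bridges ATR to its effector kinase at stalled forks, was listed on the plus strand of chromosome 5 from 144581427 to 144616335, in a table that names no build. Its levels were 10.1, 11.2 and 10.3 CPM in Hcy replicates 1, 2 and 3, and 5.76, 6.37 and 4.98 CPM in Veh. Every Hcy library lay above every Veh library, and the means were 10.5 ± 0.609 and 5.70 ± 0.696 CPM (SD, n = 3 each). The log2 fold change was 0.88 (SE 0.15, 95% confidence interval 0.55 to 1.22), with an edgeR adjusted p of 0.0179. Topbp1, which activates ATR, had 22.3, 27.2 and 19.7 CPM in Hcy and 17.3, 19.8 and 17.9 CPM in Veh. Its groups overlapped, at a log2 fold change of 0.33 (interval 0.03 to 0.64) and an edgeR adjusted p of 0.319. Atr itself, the kinase activated at single-stranded DNA, had 29.4, 33.8 and 33.8 CPM in Hcy and 30.8, 38.3 and 31.7 CPM in Veh. Its log2 fold change was -0.05 (interval -0.30 to 0.20), and its sign changed when Hcy replicate 1 or Veh replicate 2 was left out. The kinase activated at double-strand breaks, Atm, differed by -0.03 (interval -0.31 to 0.25) and its effector Chek2 by -0.05 (interval -0.42 to 0.33). The summed level of the 5 genes was 15.9 to 18.4 CPM per kb in Hcy and 14.6 to 16.3 in Veh.

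**Figure D1:**
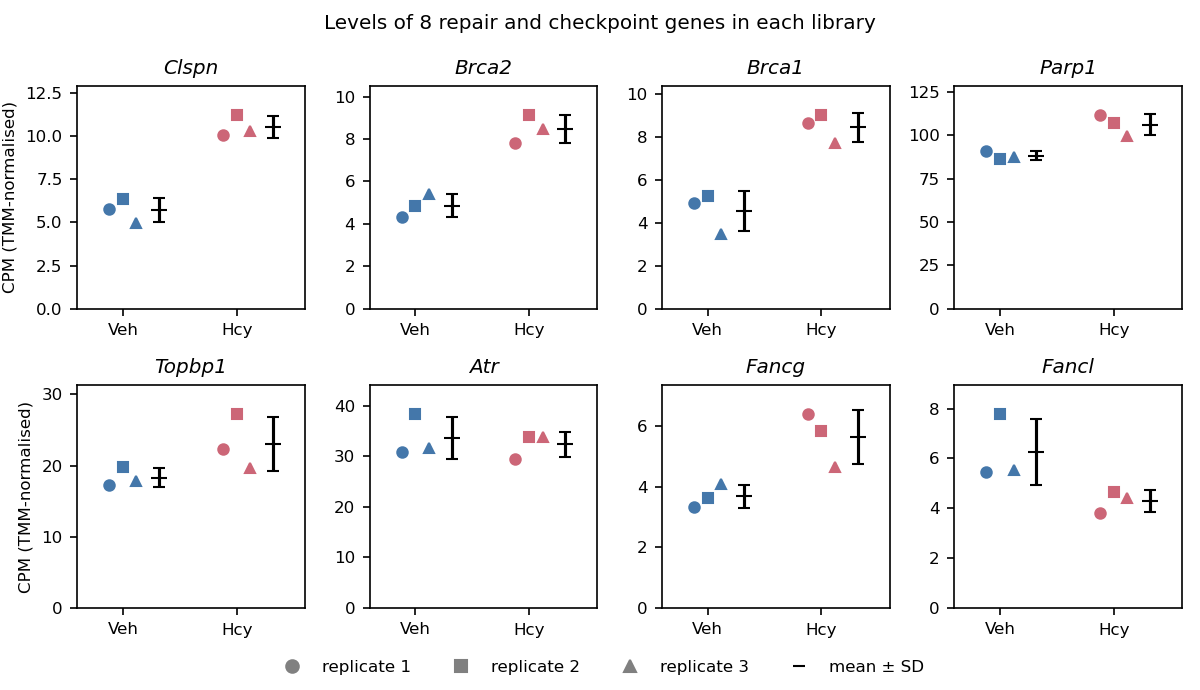
TMM-normalised CPM (linear axis from 0, its own scale in each panel) of 8 repair and checkpoint genes in the 3 Veh (blue) and 3 Hcy (red) libraries, with marker shapes for replicate numbers and bars for mean ± SD. All Hcy points of Clspn, Brca2, Brca1, Parp1 and Fancg lie above all Veh points, those of Fancl lie below, and those of Topbp1 and Atr overlap.

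Homologous recombination, the largest group with 18 of the 47 genes tested, held 2 of the 3 risen genes (11.1% of the 18, beside 2.34% of all genes). Brca2, which acts at resected ends before strand exchange, was listed on the plus strand of chromosome 12 from 504007 to 544748. It had 7.83, 9.13 and 8.47 CPM in Hcy and 4.33, 4.84 and 5.40 CPM in Veh. These ranges did not meet, and the log2 fold change was 0.80 (SE 0.16, interval 0.45 to 1.16; adjusted p = 0.0349 in edgeR).

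Brca1, which promotes resection and recruits BRCA2 with PALB2, was listed on the minus strand of chromosome 10 from 89394803 to 89454681. It had 8.62, 9.00 and 7.70 CPM in Hcy and 4.93, 5.22 and 3.46 CPM in Veh. Hcy libraries were again all higher and Veh replicate 3 was the lowest, with a log2 fold change of 0.89 (SE 0.19, interval 0.46 to 1.32) and an edgeR adjusted p of 0.0485. Scaled by library totals alone, Brca1 no longer passed. Both Brca genes were low per length, at 0.975 CPM per kb for Brca1 and 0.645 for Brca2, ranks 40 and 45 of 47.

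In 8 of the 18 recombination genes every Hcy library lay above every Veh library (44.4%, beside 10.8% of all genes), and in 0 below (beside 9.27%). The 5 beyond the risen genes with the smallest p were Rad54l, a motor protein that aids strand exchange, Exo1 and Rbbp8, which resect ends, Blm, a helicase that dissolves joint molecules, and Bard1, the partner of BRCA1. Their log2 fold changes were 0.78, 0.77, 0.21, 0.53 and 0.66, with edgeR adjusted p of 0.152, 0.232, 0.313, 0.233 and 0.261. Rad54l had 2.80, 4.03 and 4.06 CPM in Hcy and 1.96, 2.23 and 2.15 CPM in Veh, with no overlap. Rbbp8 was the most abundant of the group at 21.6 CPM per kb. It had 79.9, 85.4 and 80.0 CPM in Hcy and 64.0, 72.6 and 75.4 CPM in Veh. The break-sensing Nbn and Rad50 differed by -0.08 (interval -0.28 to 0.12) and 0.12 (interval -0.10 to 0.33), and Palb2 by 0.03 (interval -0.33 to 0.40). Of the recombination mediators, Rad51c differed by 0.17 and Rad51d by -0.11, and the intervals ran from -0.34 to 0.33 for Xrcc2, -0.80 to 0.81 for Xrcc3 and -0.30 to 1.27 for Rad51b. None of these passed. The group had a median log2 fold change of 0.19 and summed to 75.0 to 82.9 CPM per kb in Hcy and 67.3 to 76.5 in Veh. Rad51ap2 was too low to be tested, with counts of 0, 0 and 1 in Hcy and 1, 1 and 0 in Veh.

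**Figure D2:**
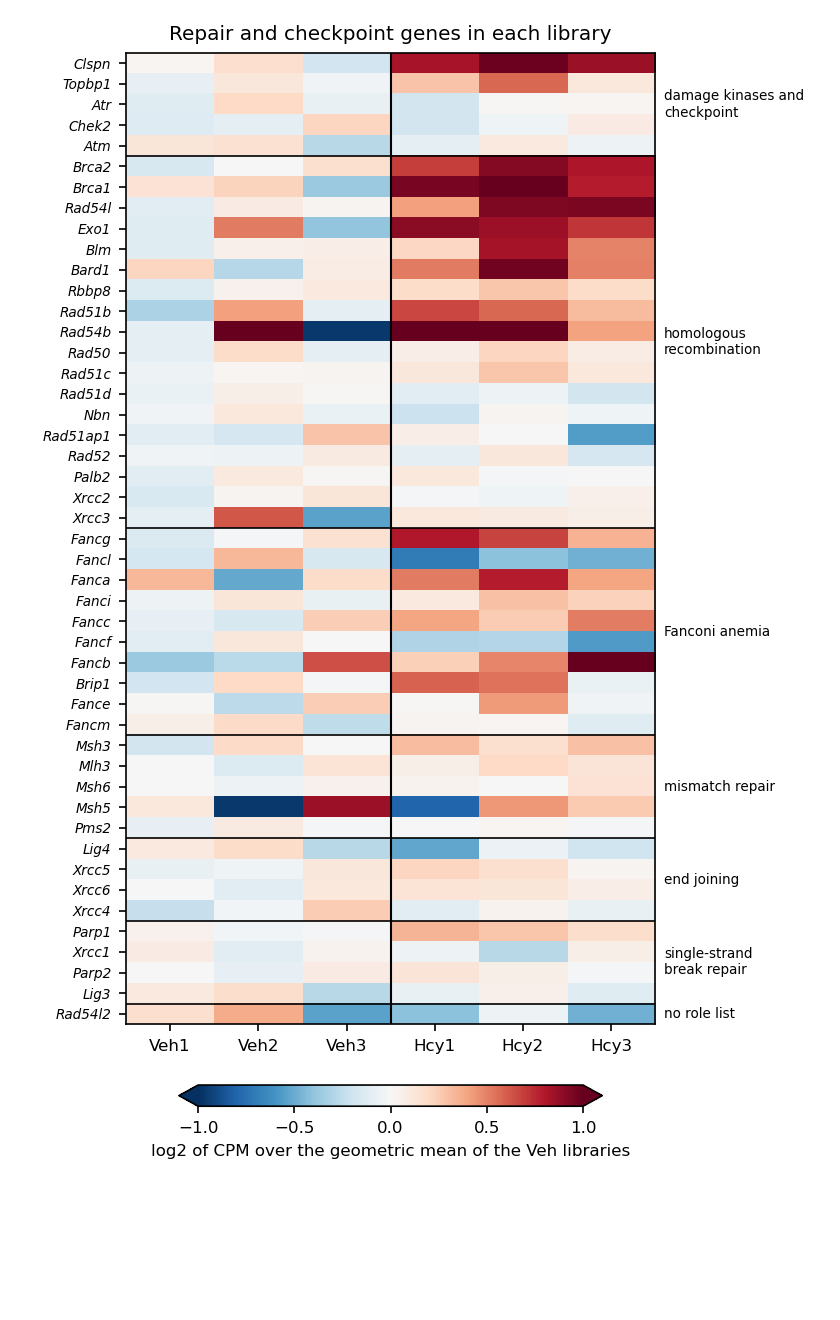
Heat map of 47 tested genes (rows, by role) in the 6 libraries (columns), coloured by log2 of CPM over the geometric mean of the Veh libraries, with colours ending at -1 and 1. The Hcy columns are red in Clspn, Brca2 and Brca1, while Nbn, Palb2 and Pms2 stay near white in both groups.

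Each gene was placed in a single role group. Brca1 and Brca2, which are also Fanconi anemia genes, were therefore counted under homologous recombination only. Of the 10 genes placed in the Fanconi anemia group, 0 passed in edgeR or DESeq2, with 7 log2 fold changes above 0 and 3 below. At an unadjusted p of at most 0.05 there was 1 higher, Fancg, and 1 lower, Fancl, beside 7.44% and 5.95% of all genes. Fancg, a scaffold of the core complex, had 6.39, 5.84 and 4.66 CPM in Hcy and 3.32, 3.63 and 4.08 CPM in Veh, a log2 fold change of 0.61 (SE 0.19, edgeR adjusted p = 0.185). Fancl, the ubiquitin ligase of that complex, had 3.81, 4.63 and 4.42 CPM in Hcy and 5.46, 7.77 and 5.54 CPM in Veh. Its log2 fold change was -0.54 (interval -0.99 to -0.09; edgeR adjusted p = 0.256). The table lists Fancl over 1092 bases of Vrk2 on the other strand, and how counting used strand is not given in the sources used here, so reads in the shared bases cannot be told apart. The same holds, within the shared bases only, for Xrcc3 over 2167 bases of Klc1, Lig3 over 435 of Rffl, Msh6 over 144 of Fbxo11, Fanca over 34 of Zfp276 and Rad54l over 18 of Lrrc41. Rad54b is listed over 4645 bases of Fsbp on the same strand. Fanca, another core scaffold, differed by 0.53 (adjusted p = 0.408 in edgeR), and Fancf, an adaptor, by -0.38 (0.481). Fanci, which the complex ubiquitinates, was the most abundant of the group at 4.66 CPM per kb and differed by 0.21 (0.479). The group's median was 0.29, and it summed to 22.0 to 24.7 CPM per kb in Hcy and 20.7 to 22.6 in Veh.

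Of the 5 genes tested in the mismatch repair group, 0 passed in edgeR or DESeq2 and 0 at an unadjusted p of at most 0.05. Exo1, which also acts in mismatch repair, was counted under homologous recombination (unadjusted p = 0.0188 in edgeR). Msh6, the subunit that recognises single mismatches, was the most abundant at 12.7 CPM per kb. It had 60.8, 59.5 and 65.8 CPM in Hcy and 59.6, 57.4 and 61.3 CPM in Veh, a log2 fold change of 0.06 (interval -0.11 to 0.23; edgeR adjusted p = 0.796). Msh3, the subunit that recognises loops, had 7.32 to 8.11 CPM in Hcy and 5.76 to 7.45 CPM in Veh, overlapping at a log2 fold change of 0.25 (interval -0.10 to 0.60; edgeR adjusted p = 0.556). The MutL homologs Mlh3 and Pms2 act after the mismatch is recognised. Mlh3 differed by 0.13 (interval -0.14 to 0.39; edgeR adjusted p = 0.714), and the interval of Pms2 ran from -0.21 to 0.21. The groups overlapped in all 5 genes, which summed to 25.0 to 26.1 CPM per kb in Hcy and 23.7 to 24.9 in Veh. Msh4, a meiotic homolog, had 0 counts in every library but Veh replicate 2, which had 1.

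End joining and single-strand break repair held no gene that passed. Of the 4 end joining genes, 0 passed in edgeR or DESeq2 and 0 at an unadjusted p of at most 0.05. The Ku subunits Xrcc5 and Xrcc6 differed by 0.13 (interval -0.06 to 0.32) and 0.10 (interval -0.10 to 0.31). Lig4, which seals the ends, had 22.7, 31.4 and 28.4 CPM in Hcy and 34.9, 37.0 and 26.9 CPM in Veh, overlapping at a log2 fold change of -0.26 (interval -0.60 to 0.08). Of the 4 single-strand break genes, 0 passed in edgeR or DESeq2, with 1 higher (beside 7.44% of all genes) at an unadjusted p of at most 0.05. That gene was Parp1, the break sensor and the most abundant of all 47 at 25.0 CPM per kb. It had 111.7, 107.1 and 99.6 CPM in Hcy and 91.2, 86.5 and 87.3 CPM in Veh. These did not overlap, with a log2 fold change of 0.26 (interval 0.10 to 0.43; edgeR adjusted p = 0.131). The scaffold Xrcc1 differed by -0.08 (interval -0.33 to 0.16) and Parp2, a second sensor, by 0.05 (interval -0.15 to 0.26). Rad54l2, a helicase caught by its symbol and placed in no route, differed by -0.36 (interval -0.92 to 0.21).

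**Figure D3:**
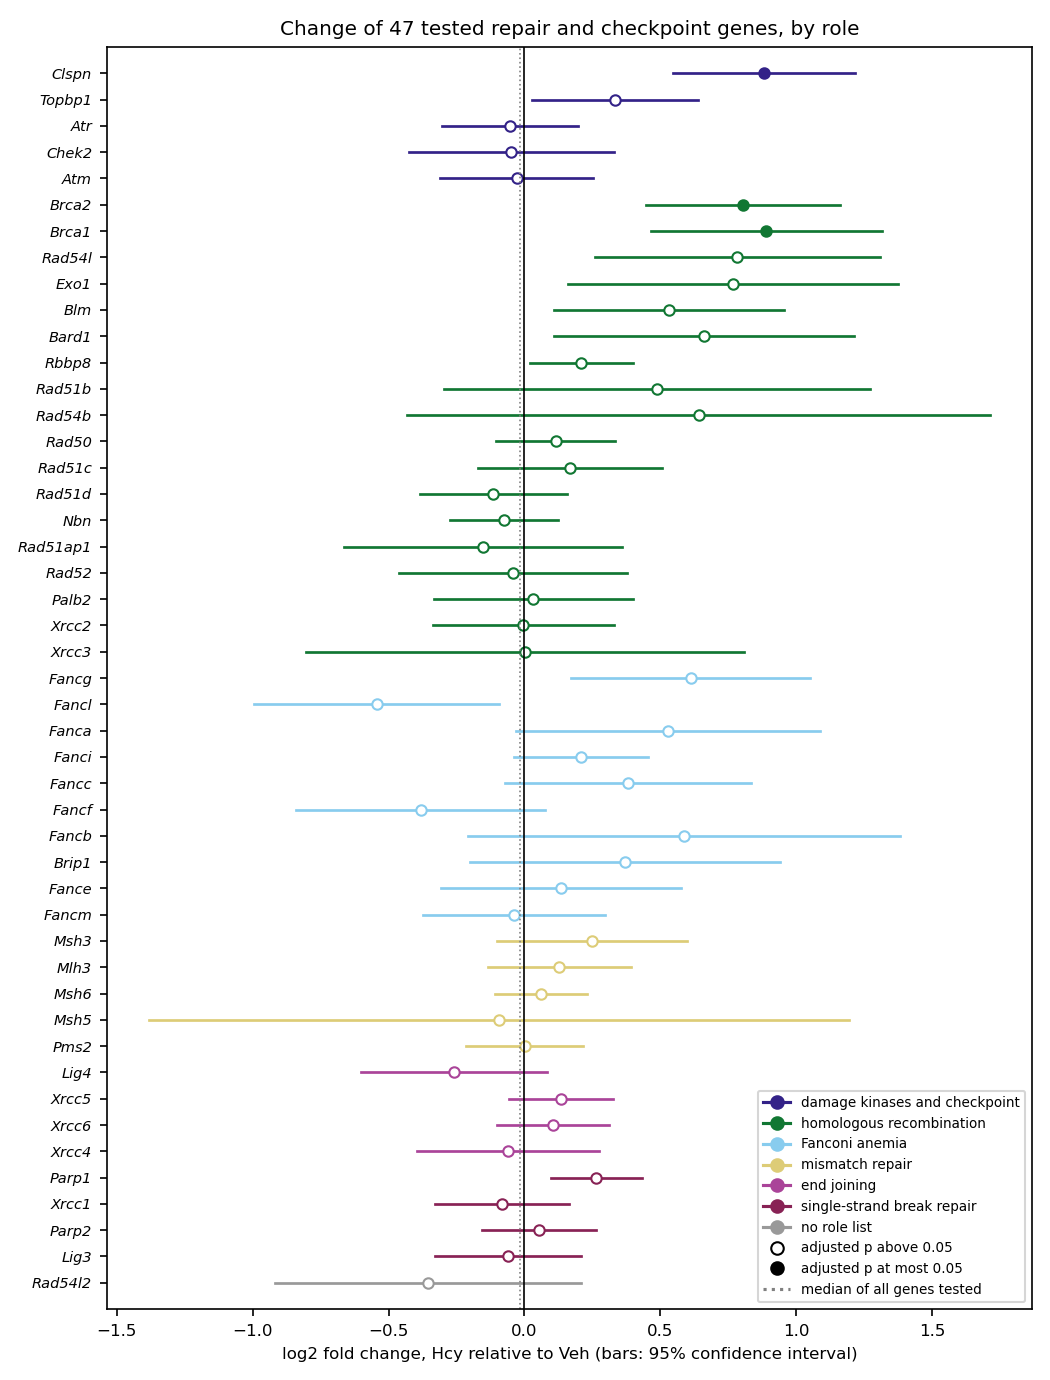
Log2 fold change (Hcy relative to Veh, points) with 95% confidence intervals (bars) of 47 tested genes, coloured by role, filled where the edgeR adjusted p was at most 0.05. The 3 filled points lie between 0.80 and 0.89, and the dotted line at -0.02 is the median of all genes.

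The other genes of DNA repair and of the cell cycle gave the setting for these values. Of 112 other DNA repair and checkpoint genes, 3 rose and 1 fell (3.57%, beside 2.34% of all genes), with a median log2 fold change of 0.02. The risen genes were Lig1, the ligase of replicated fragments, at 22.1 ± 1.59 against 13.0 ± 1.23 CPM, Timeless, which steadies forks, at 21.7 ± 2.38 against 13.3 ± 0.378 CPM, and Rpa1, which coats single-stranded DNA, at 125.5 ± 7.37 against 97.1 ± 3.38 CPM (SD, n = 3). Their edgeR adjusted p were 0.0131, 0.0159 and 0.0405. Mgmt, which removes alkyl groups from guanine, fell by 0.63 on the log2 scale, from 83.7 ± 12.7 to 54.1 ± 3.15 CPM (edgeR adjusted p = 0.0231). Leaving out any one of Hcy replicates 1, 2 and 3 left 0 of these calls, leaving out Veh replicate 1 or 2 left only Mgmt, and leaving out Veh replicate 3 gave 7.

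Of 37 proliferation genes, 12 rose and 0 fell (32.4%, beside 2.34% of all genes). With DESeq2, 18 rose and 0 fell, beside 4.19% of all genes. Leaving out Veh replicate 3 gave 20, and leaving out any other library 4. Those with the smallest p were the replicative helicase genes Mcm4, Mcm2, Mcm5 and Cdc45, at log2 fold changes of 0.70, 0.68, 0.80 and 0.80 (edgeR adjusted p = 0.00242, 0.00370, 0.00487 and 0.00817). The list's median was 0.53, and 34 of the 37 were above 0. Its summed level was 627.8, 629.2 and 578.5 CPM per kb in Hcy and 386.2, 406.9 and 476.6 in Veh, so every Hcy library was higher and Veh replicate 3 was the highest of Veh. E2F letters stood in 10 of the 31 proliferation promoters with an entry (32.3%). They stood in 12 of 96 promoters of the other DNA repair and checkpoint genes (12.5%) and in 2.25% of all promoters.

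Of 28 p53 pathway genes, 0 rose and 2 fell (7.14%, beside 2.34% of all genes), with a median log2 fold change of -0.12. DESeq2 passed 1 higher and 5 lower, beside 4.19% of all genes. Mdm2, the ubiquitin ligase that p53 induces and that degrades it, had 297.1, 325.0 and 316.2 CPM in Hcy and 485.7, 570.4 and 492.5 CPM in Veh. It fell by 0.72 on the log2 scale (SE 0.08, edgeR adjusted p = 0.00353) and passed whichever library was left out. Ccng1, another p53 target, fell by 0.38 (edgeR adjusted p = 0.0230) and passed in 1 of the 6 fits that left a library out, the one without Veh replicate 3. The 28 genes summed to 1518 to 1612 CPM per kb in Hcy and 1712 to 1836 in Veh, and E2F letters stood in 1 of their 24 promoters (4.17%).

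**Figure D4:**
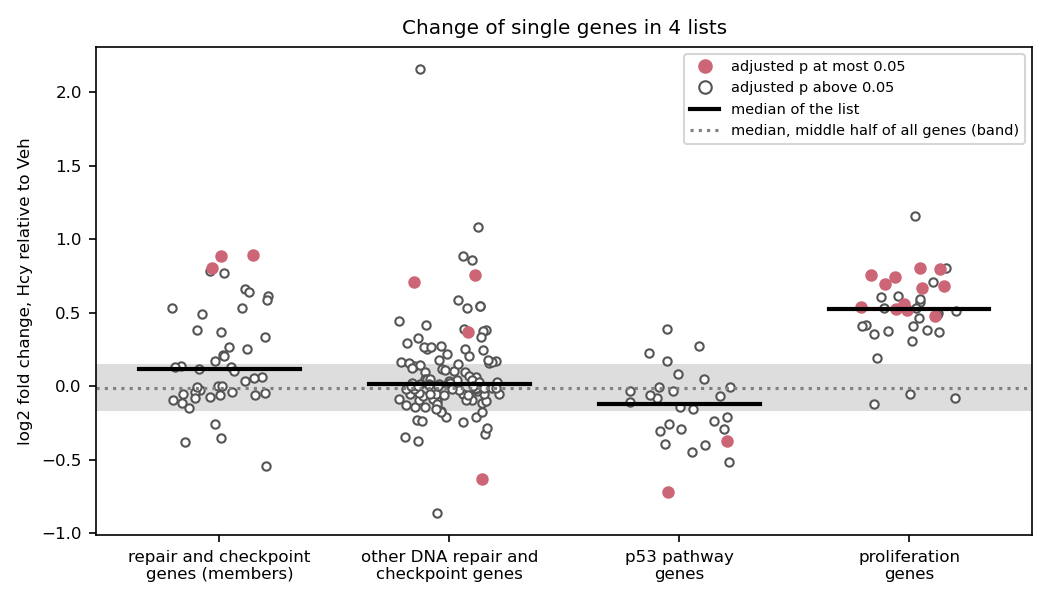
Log2 fold change (Hcy relative to Veh) of each tested gene in 4 lists, filled where the edgeR adjusted p was at most 0.05, with thick lines for list medians and a dotted line and band for the median and middle 50% of all genes. The medians were 0.12 for the repair and checkpoint genes, 0.02 for other repair genes, -0.12 for the p53 pathway and 0.53 for proliferation.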

How the data were processed

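RNA-seq of 3 Hcy and 3 Veh libraries was grouped by the sample labels. Per gene, the authors deposited unnormalised read counts, positions and lengths, and the submitters' processing notes name fastp, HISAT2 2.2.1, StringTie 2.2.3, Cufflinks, featureCounts 2.0.6 and DESeq2 1.42.0, without their roles. The notes and methods name mRatBN7.2, the table names no build, and positions are printed as listed. A second deposited table holds log2 fold changes and p-values of the authors' own comparison and was not used. Libraries were poly(A)-selected and held 14024997 to 16764584 counts.

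Counts of the genes with at least 10 counts in total were TMM-scaled. They were compared with edgeR 4.0.16 (quasi-likelihood test, condition as the only term, prior count 0.125) in R 4.3.3. A check on simulated data came first. Its changes were 2 in size on the log2 scale, larger than those of Clspn, Brca2 and Brca1. Adjustment was Benjamini-Hochberg over 14603 genes. CPM is TMM-normalised, and levels between genes are CPM per kb of listed length. The alternatives were DESeq2, its size factors, library totals alone, no filter on low counts, filterByExpr, a replicate block, a prior count of 2, unadjusted p, the fold threshold of the study, and leaving out each library.

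The genes, role groups and lists were chosen with earlier results of these data known. Named were all genes that passed, in each role group the 3 with the smallest p and the one with the highest level, those too low to be tested, those with a printed sequence, and in each other list up to 4 genes that passed, or the 2 with the smallest p. Other genes named were chosen after their values were seen. Some genes that the symbols or lists cover are not reported here and were left out of the counts, medians, sums and figures of their groups for a reason unrelated to their values, while the fit and the adjustment used all genes.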

Additional observations from a re-analysis of the deposited data

How the results depend on the processing

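The same 3 repair and checkpoint genes passed with DESeq2, DESeq2's size factors, no filter on low counts, filterByExpr and a prior count of 2. With library totals alone there were 2, without Brca1. The median log2 fold change of the tested repair and checkpoint genes stayed between 0.08 and 0.17 under every alternative that was fitted. Leaving out 1 library gave 0 to 3 passing repair and checkpoint genes, 80 to 957 of all genes, 0 to 7 other repair genes, 1 to 6 p53 pathway genes and 4 to 20 proliferation genes, with fewer samples in each fit. The highest of each came without Veh replicate 3. In those fits the log2 fold changes lay between 0.80 and 0.97 for Clspn, 0.73 and 0.89 for Brca2, and 0.73 and 1.00 for Brca1, while that of Atr ranged from -0.11 to 0.049. DESeq2 passed 612 of all genes, beside 341 with edgeR, and 6 of the p53 pathway. An unadjusted p passed 1955, 12, 13, 12 and 30 in the order all genes, repair and checkpoint genes, other repair, p53 and proliferation, and the fold threshold of the study 71, 0, 0, 0 and 0. With replicate numbers as a block, 2 repair and checkpoint genes passed (Clspn and Brca1), and Brca2 had an adjusted p of 0.0555. The numbers were not taken to pair the libraries, as no label says that they do. Deviations of same-numbered libraries correlated at 0.024, 0.167 and 0.058. Hcy replicates 2 and 3 correlated best with the Veh library of their own number, and Hcy replicate 1 with Veh replicate 3, at 0.129. The cause of these changes was not tested. At 3 libraries a group, low genes such as Rad54b, Msh5 and Rad51b had intervals that held both 0 and the change of Brca2.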

Other observations

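The marker genes with the smallest p in lists where none passed had the following values in edgeR. Of the endothelial markers, Slc2a1, the glucose transporter of the barrier, was at 497.4 CPM in Hcy and 621.2 CPM in Veh (log2 fold change -0.32, adjusted p = 0.0536), and Vwf, the clotting factor stored by endothelial cells, was at 2933 and 2288 CPM (0.36, adjusted p = 0.0932). Every Hcy library lay below every Veh library in Slc2a1 and above in Vwf. The log2 fold changes were -0.52 for Col1a1 and 0.53 for Lum (fibroblasts), -0.28 for Gja1 and 1.86 for Gfap (astrocytes), 0.74 for Cd68 and -0.71 for Csf1r (microglia and macrophages), 1.01 for Mbp and -0.00 for Mog (oligodendrocytes), and 0.85 for Syt1 and 0.32 for Tubb3 (neurons), with adjusted p between 0.152 for Gja1 and 0.994 for Mog. Gfap, Lum and Csf1r lay near the floor of 3 counts, at means of 0.177, 0.211 and 0.178 CPM in Hcy.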
